A study of Homo sapiens with 6 samples.

Results

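A set of 8 ETS-domain transcription factor genes that stands at the output of ERK signalling and serum response factor (SRF) was followed here, namely ETV1, ETV4 and ETV5 of the PEA3 subfamily, the ternary complex factors ELK1, ELK3 and ELK4, and the founding members ETS1 and ETS2. These 8 genes were taken by name from the 60676 gene IDs in the count tables, and each symbol matched 1 ID. They were measured by RNA sequencing of HEK293A cells, a flat-growing subline of HEK293, itself human embryonic kidney cells transformed with adenovirus DNA. One group of 3 libraries was given 20 nM VT01454 for 2 h, an agent the labels give by code name alone, and the other group of 3 libraries was given the DMSO vehicle for 2 h. Both groups are 1 cell line with no other change, and the series title places the experiment in work on phosphoinositol transfer protein (PITP) and the Hippo pathway.

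ETS factors share a DNA-binding domain that reads a GGAA core. The ternary complex factors sit with SRF on the promoters of immediate early genes such as EGR1 and FOS and activate them once ERK phosphorylates them, so their activity is set mainly on the protein. The PEA3 genes are themselves transcribed in response to ERK signalling and are held down by the repressor Capicua (CIC), whereas ETS1 and ETS2 are phosphorylated by ERK and then bind the coactivators CBP and p300. RNA sequencing sees only the transcript levels of these proteins, not their phosphorylation.

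The compound libraries held 24646466 to 28880374 counts and the vehicle libraries 19126039 to 26879796. Before scaling, 1 count was thus worth 0.0346 to 0.0523 CPM (counts divided by library size and multiplied by 1000000). The CPM values of genes use library sizes multiplied by TMM scaling factors, which ran from 0.988 to 1.012. Nothing in the labels tells whether replicate libraries are separate cultures. The p-values therefore measure only a spread between libraries that may be technical. Over 10672 genes with a mean of at least 5 CPM, the median SD of log2 CPM was 0.0489 among compound libraries and 0.112 among vehicle libraries. Of 8 genes listed for HEK293 cells, 5 exceeded 1 CPM in at least 1 library, and PAX2, LHX1 and INA stayed below it throughout. NEFM varied widely, from 4 to 93 counts with the compound and 10 to 126 with vehicle. The neurofilament gene NEFL was the highest, at means of 681.7 CPM with the compound and 676.2 CPM with vehicle. It made up most of the summed level of the 8, which was 1193 to 1201 CPM with the compound and 1131 to 1249 CPM with vehicle. Of 12 markers of other cell types, 9 stayed below 1 CPM in every library, among them the leukocyte genes PTPRC, CD3E and CD68 at 0. The 3 above it were the fibroblast-type genes COL1A1, COL1A2 and LUM, COL1A1 at 15.3 to 23.0 CPM with the compound and 16.3 to 26.8 CPM with vehicle. The sum over the 12 was 22.1 to 32.2 CPM with the compound and 24.4 to 36.6 CPM with vehicle.

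Upstream sequence of the members, 250 bases before to 50 bases after each RefSeq transcript start on build GRCh38.p14, is shown first because members of a family that binds GGAA may differ in how they carry that core. Windows were matched for 5 of the 8 genes (ETV1, ELK1, ELK3, ELK4 and ETS2, 12 windows in all), and not for ETV4, ETV5 and ETS1. The windows below are of a gene that did not pass the test (ELK4) and of 2 genes that did (ETS2 and ETV1), each 5′ to 3′ on the gene's own strand. Capitals mark the core GGAA or its complement TTCC and the longer ETS site CCGGAAGT, which contains that core.
ELK4, chr1:205631962-205632261, minus strand: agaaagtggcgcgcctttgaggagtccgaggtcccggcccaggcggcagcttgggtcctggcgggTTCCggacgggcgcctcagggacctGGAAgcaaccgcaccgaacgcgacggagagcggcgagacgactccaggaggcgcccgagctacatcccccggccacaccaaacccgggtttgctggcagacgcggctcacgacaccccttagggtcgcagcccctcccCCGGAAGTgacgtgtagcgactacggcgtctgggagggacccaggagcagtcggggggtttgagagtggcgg
ETS2, chr21:38805679-38805978, plus strand: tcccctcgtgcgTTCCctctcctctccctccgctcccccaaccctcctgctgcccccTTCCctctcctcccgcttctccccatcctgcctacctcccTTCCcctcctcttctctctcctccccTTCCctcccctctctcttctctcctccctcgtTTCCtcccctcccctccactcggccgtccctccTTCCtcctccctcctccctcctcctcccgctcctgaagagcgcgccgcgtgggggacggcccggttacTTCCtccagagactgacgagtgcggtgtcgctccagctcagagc
ETV1, chr7:13990653-13990952, minus strand: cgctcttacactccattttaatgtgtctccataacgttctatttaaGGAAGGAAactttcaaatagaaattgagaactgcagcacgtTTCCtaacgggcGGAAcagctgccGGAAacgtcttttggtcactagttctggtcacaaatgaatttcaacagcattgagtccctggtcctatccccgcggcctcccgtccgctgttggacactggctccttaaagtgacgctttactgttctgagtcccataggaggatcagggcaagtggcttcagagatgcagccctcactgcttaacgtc

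The ELK4 window held the site CCGGAAGT once, with its first base 22 bases before the start (position -22), and none of the other 11 member windows held it on either strand. That site was found in 4.14% of the 35116 windows of the RefSeq table. The ETS2 window above held 7 cores, all read as TTCC on the gene's strand, while the ETV1 window held 5, of which GGAAGGAA starts at position -204. Counts of the core over the 12 windows ran from 2 (ELK3) to 8 (the other ELK3 window), but the core alone was present in 95.5% of all windows. No member window matched the 2 forms of the Capicua octamer that were searched, TGAATGAA (1.66% of all windows) and TCAATGAA (0.718%). Other forms of that octamer were not searched. Nor did any window match the cyclic AMP element TGACGTCA (1.85%), the AP-1 site TGANTCA (7.71%), the CArG box that SRF binds (1.29%) or the TEAD site ACATTCC (3.46%). Each motif was searched on both strands. The TEAD site contains the complement of the ETS core. These are matches of letters within 300 bases and say nothing of what binds there.

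After 2 h with the compound, transcripts of 3 of the 8 genes were higher than with vehicle and none was lower. ETV5 rose 1.64-fold, ETV1 rose 1.32-fold and ETS2 rose 1.24-fold, while ETV4, ETS1 and all 3 ternary complex factor genes did not pass. In bulk RNA a change in the share of cells that express a gene and a change in RNA per cell cannot be told apart. The test was edgeR's quasi-likelihood test over all 15577 genes with enough counts, 8 of 8 members among them, and a gene was called at a Benjamini-Hochberg adjusted p below 0.05. Across all tested genes 1.89% were called, 1.27% as higher and 0.616% as lower. The 8 members had a median log2 fold change of 0.13, beside -0.0073 over all tested genes, and 7 of 8 were above 0. In DESeq2 the same count was 3 higher and 0 lower, and in limma-voom 2 higher and 0 lower. An unadjusted p below 0.05 in edgeR was reached by 3 members and by 2239 of all 15577 tested genes. Without compound library 1, 2 or 3, or without vehicle library 1, the count of called members was 1. Calls over all tested genes also fell in these settings, from 294 to 136, 109, 108 and 93, in the same order.

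**Figure D1:**
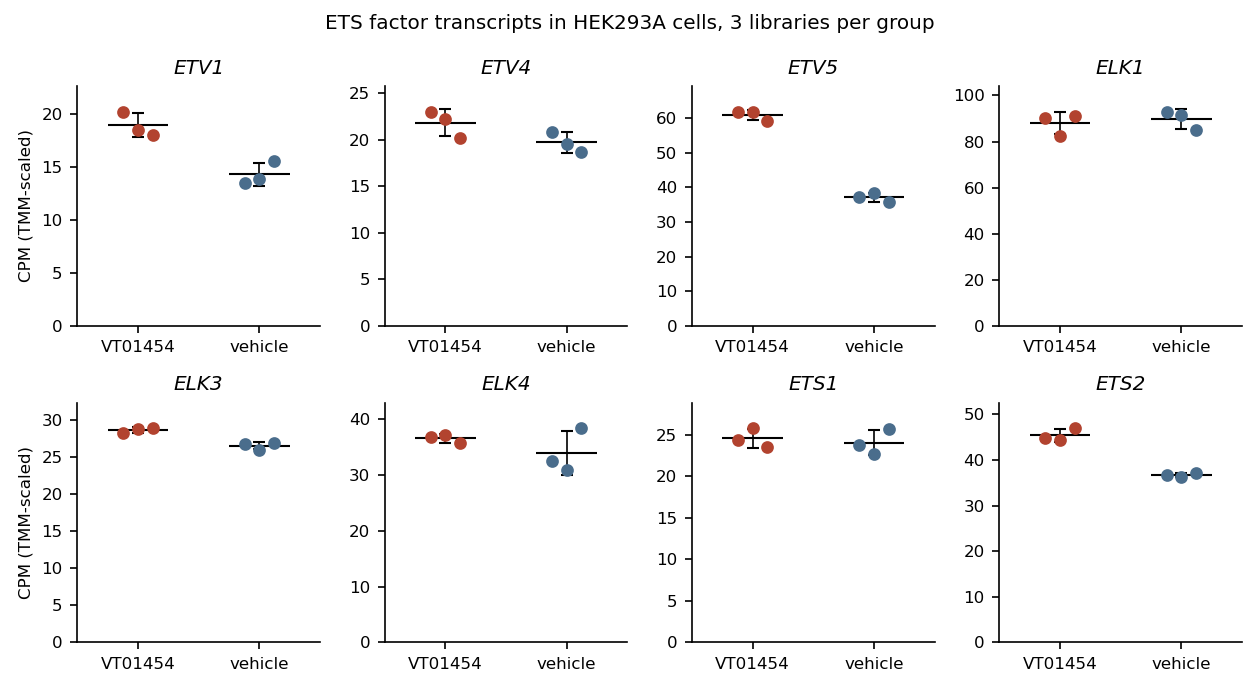
Transcript level in CPM (vertical axes, from 0) of the 8 ETS factors in each of 3 VT01454 libraries (left, red) and 3 vehicle libraries (right, blue), with the mean (bar) and SD (whiskers). ETV5, ETV1, ETS2 and ELK3 had every compound library above every vehicle library, and the other 4 genes overlapped.

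Among the PEA3 factors, which drive branching growth and invasion programmes downstream of receptor tyrosine kinases, ETV5 (ENSG00000244405, chromosome 3, 186046308 to 186110318, minus strand of hg38) moved most. It had 61.9, 61.9 and 59.3 CPM in the compound libraries, against 37.2, 38.5 and 35.8 CPM in the vehicle libraries. All compound libraries were thus well above all vehicle libraries. Every compound library above every vehicle library, by any margin, was seen in 11.3% of all tested genes. The means were 61.0 ± 1.46 CPM with the compound and 37.1 ± 1.33 CPM with vehicle (SD, n = 3 each). The log2 fold change was 0.72 ± 0.06 (SE), with a 95% interval of 0.58 to 0.86 (edgeR adjusted p = 5.01e-05). By its unadjusted p, ETV5 ranked 22 of 15577. The call held under all 13 alternatives run, with log2 fold changes of 0.69 to 0.74 when a library was left out and an adjusted p of at most 0.00326.

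ETV1 (ENSG00000006468, chromosome 7, 13891228 to 13991425, minus strand), a PEA3 factor known as a driver of prostate cancer when fused to an androgen-regulated gene, was the least abundant of the 8 per length. It had 20.2, 18.6 and 18.1 CPM with the compound, against 13.5, 13.9 and 15.6 CPM with vehicle, from 442 to 577 and 266 to 422 counts. The groups did not overlap, but the nearest libraries were 18.1 and 15.6 CPM. Its log2 fold change was 0.40 ± 0.09 (95% interval 0.20 to 0.60, edgeR adjusted p = 0.0455), and it ranked 264 of 15577. The call was lost without compound library 1 (adjusted p = 0.249), 2 (0.165) or 3 (0.135) or without vehicle library 1 (0.248), with library size alone as the scaling (0.0610) and in limma-voom (0.0510). Over the 13 alternatives the adjusted p ran from 0.00441 to 0.249, and the log2 fold change stayed between 0.35 and 0.47 when single libraries were left out.

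ETV4 (ENSG00000175832, chromosome 17, 43527844 to 43579620, minus strand), first described as a factor binding the adenovirus E1A enhancer, had 23.0, 22.3 and 20.2 CPM with the compound, against 20.9, 19.6 and 18.7 CPM with vehicle. The groups overlapped, since compound library 3 lay below vehicle library 1. The log2 fold change was 0.15 ± 0.08 with a 95% interval of -0.035 to 0.33 (edgeR adjusted p = 0.451), so a rise of up to 1.26-fold lies inside the interval. In GENCODE 29 its exons share 68 bases with DHX8 on the opposite strand, which had 2052 to 3591 counts per library. Whether reads were counted by strand is not stated, so reads of the 2 genes over those bases cannot be told apart. Other members also share exonic bases, with genes of few counts. ETV5 shares 164 bases with DGKG on the same strand (10 to 21 counts per library). On the opposite strand ELK4 shares 422 bases with MFSD4A (4 to 15 counts) and ELK3 shares 209 with AC008149.1 (0 counts).

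The makeup of the PEA3 pool was set out per length, as CPM per kb of exonic length in GENCODE 29. ETV5 supplied 55.7%, 56.8% and 57.8% of the summed PEA3 level in the compound libraries, against 47.1%, 49.1% and 47.5% in the vehicle libraries. ETV4 supplied 32.6% ± 0.885 with the compound and 40.9% ± 1.42 with vehicle, and ETV1 10.6% ± 0.357 and 11.2% ± 1.15, in the same order (SD, n = 3 each). The share of ETV5 was therefore 8.83 percentage points higher and the difference for ETV4 was -8.30 points, both with no overlap between groups, whereas the ETV1 shares overlapped. An exact two-sided permutation test gave p = 0.1 for ETV5 and ETV4, the smallest that 3 against 3 libraries allow, and p = 0.6 for ETV1. Adjusted over the 8 shares tested in the 3 subfamilies, the values were 0.2, 0.2 and 0.6. The summed PEA3 level was 18.5 ± 0.749 CPM per kb with the compound and 13.4 ± 0.330 with vehicle, 1.39-fold higher (exact p = 0.1).

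**Figure D2:**
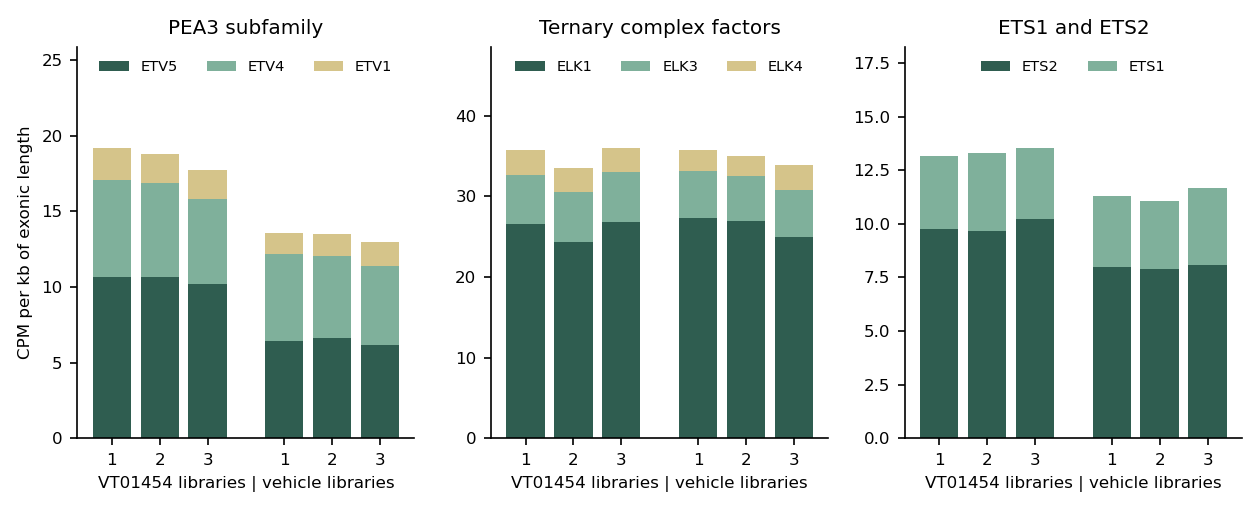
Stacked levels in CPM per kb of exonic length (vertical axes, from 0) of the PEA3 genes, the ternary complex factors and ETS1 with ETS2, in VT01454 libraries 1 to 3 (left bars of each panel) and vehicle libraries 1 to 3 (right bars). The PEA3 sums were 17.7 to 19.2 with the compound and 13.0 to 13.6 with vehicle, mostly through ETV5, while the sums of the ternary complex factors overlapped.

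ETS2 (ENSG00000157557, chromosome 21, 38805307 to 38824955, plus strand), a ubiquitous factor whose transactivation is raised by ERK phosphorylation, had 44.7, 44.5 and 47.0 CPM with the compound, against 36.7, 36.3 and 37.1 CPM with vehicle. The vehicle libraries lay close together and every compound library was higher. The log2 fold change was 0.31 ± 0.06 (95% interval 0.17 to 0.45, edgeR adjusted p = 0.0297), with a rank of 215 of 15577. The size held when single libraries were left out (0.29 to 0.33), but the call did not without compound library 1 (adjusted p = 0.147), 2 (0.147) or 3 (0.230) or vehicle library 1 (0.146). Its range over the 13 alternatives was 0.00599 to 0.230.

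ETS1 (ENSG00000134954, chromosome 11, 128458761 to 128587558, minus strand), the paralogue best known from lymphoid and endothelial cells, had 24.4, 25.8 and 23.5 CPM with the compound, against 23.7, 22.7 and 25.7 CPM with vehicle. The groups overlapped throughout, and the log2 fold change of 0.03 ± 0.08 had a 95% interval of -0.14 to 0.20 (edgeR adjusted p = 0.888). Of the summed ETS1 and ETS2 level per length, ETS2 made up 74.2% ± 1.40 with the compound and 70.4% ± 1.09 with vehicle (SD, n = 3 each). That share was 3.79 points higher, with no overlap between groups (exact permutation p = 0.1, adjusted over the 8 shares 0.2).

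None of the 3 ternary complex factor genes passed the test. ELK1 (ENSG00000126767, chromosome X, 47635521 to 47650604, minus strand), the classical ERK substrate on the FOS promoter, had 90.4, 82.5 and 91.0 CPM with the compound, against 92.9, 91.4 and 84.8 CPM with vehicle. Its log2 fold change was -0.03 ± 0.07, with a 95% interval of -0.17 to 0.11 (edgeR adjusted p = 0.875), and it turned to 0.02 without compound library 2. ELK4 (ENSG00000158711, chromosome 1, 205597556 to 205631962, minus strand), also called SAP-1, had 36.8, 37.1 and 35.6 CPM with the compound, against 32.5, 30.8 and 38.4 CPM with vehicle. Vehicle library 3 stood above all compound libraries, and the log2 fold change was 0.11 ± 0.08 (95% interval -0.079 to 0.29, adjusted p = 0.602) with all libraries and 0.21 without that library (adjusted p = 0.0666).

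ELK3 (ENSG00000111145, chromosome 12, 96194382 to 96269835, plus strand), also called NET, represses its targets until ERK phosphorylates it. It had 28.2, 28.8 and 28.9 CPM with the compound, against 26.8, 25.9 and 26.8 CPM with vehicle. Every compound library was higher, by a small margin, and the log2 fold change of 0.11 ± 0.07 did not pass (95% interval -0.040 to 0.26, edgeR adjusted p = 0.496). The summed level of the ternary complex factors was 35.1 ± 1.31 CPM per kb with the compound and 34.9 ± 0.956 with vehicle (exact permutation p = 0.9). ELK1 supplied 73.8% ± 1.22 of it with the compound and 75.6% ± 1.72 with vehicle, and none of the 3 shares in this subfamily separated the groups (exact permutation p = 0.2 to 0.5).

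The order of levels per length put ELK1 first in both groups, at 25.9 ± 1.39 CPM per kb with the compound and 26.4 ± 1.27 with vehicle. With the compound ETV5 came next at 10.5 ± 0.252, then ETS2 at 9.88 ± 0.298, whereas with vehicle ETS2 at 7.98 ± 0.0861 stood above ETV5 at 6.40 ± 0.229. That exchange rests on the division by length, since without it ETV5 and ETS2 averaged 61.0 and 45.4 CPM with the compound and 37.1 and 36.7 CPM with vehicle. With the compound the ranges per length nearly touched, at 10.23 as the lowest ETV5 library and 10.22 as the highest ETS2 library. ELK3 and ETV4 followed in that order in both groups, with 6.16 ± 0.0766 and 6.05 ± 0.406 CPM per kb with the compound and 5.70 ± 0.107 and 5.46 ± 0.298 with vehicle, and their ranges overlapped in each group. ETS1, ELK4 and ETV1 closed the order, ETV1 at 1.97 ± 0.119 with the compound and 1.49 ± 0.115 with vehicle. All neighbours other than ELK3 and ETV4 were apart in range in both groups.

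Short-lived early transcripts often carry the AU-rich pentamer ATTTA in the 3′ untranslated region (3′ UTR), so it was counted in the principal GENCODE 29 transcript of each member. ETV1 had 22 pentamers in a 4638-base 3′ UTR, or 4.74 per kb, a density above that of 89.3% of 12817 tested coding genes, whose median was 1.67 per kb. ETS2 had 7 in 2066 bases (3.39 per kb) and ETV5 had 4 in 2331 bases (1.72 per kb), close to the median. ELK3, ETS1, ELK4 and ELK1, which did not pass the test, had 3.77, 3.36, 3.02 and 2.29 per kb, and ETV4 had none in 675 bases. Called and uncalled members were thus interleaved. The nonamer TTATTTATT, the stricter AU-rich motif found in 8.83% of those genes, occurred among the members in ELK1 alone, as 2 overlapping copies. The stretch with both is shown because no other member held the nonamer, and capitals mark the 13 bases that the copies span.
ELK1, 3′ UTR of the gene on chromosome X, from the GENCODE 29 transcript: aggggcggtTTATTTATTTATTttttg

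Beyond these genes the human ETS family has 20 further members, of which 10 had too few counts to test, among them the haematopoietic factor gene SPI1 and the epithelial genes ELF3, ELF5 and EHF. Of the 10 tested, ETV3, which encodes a repressor with an ETS domain, rose and 9 did not pass. Over all tested genes 1.27% were called higher and 0.616% lower. ETV3 had 65.7, 63.7 and 64.0 CPM with the compound, against 50.4, 47.3 and 54.5 CPM with vehicle, a log2 fold change of 0.34 ± 0.07 (edgeR adjusted p = 0.0223). Its groups did not overlap. That call was lost without compound library 1 (adjusted p = 0.157), 2 (0.123) or 3 (0.128) or vehicle library 1 (0.147), which left 0 of the list called. Those 4 settings called 136, 109, 108 and 93 of all tested genes, in the same order, beside 294 with all libraries. ELF1, GABPA and ELF2, widely expressed activators, had log2 fold changes of 0.27 ± 0.07, 0.21 ± 0.07 and 0.18 ± 0.07 and adjusted p of 0.112, 0.183 and 0.247. These 3 passed without vehicle library 3 (adjusted p = 0.00188, 0.00354 and 0.0360), so that 4 of the list were then called. Leaving that library out gave 1806 calls among all 15890 genes then tested. ELF1 also passed in DESeq2 (adjusted p = 0.0464). The median over the 10 tested genes was 0.16, beside 0.13 for the 8 members.

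**Figure D3:**
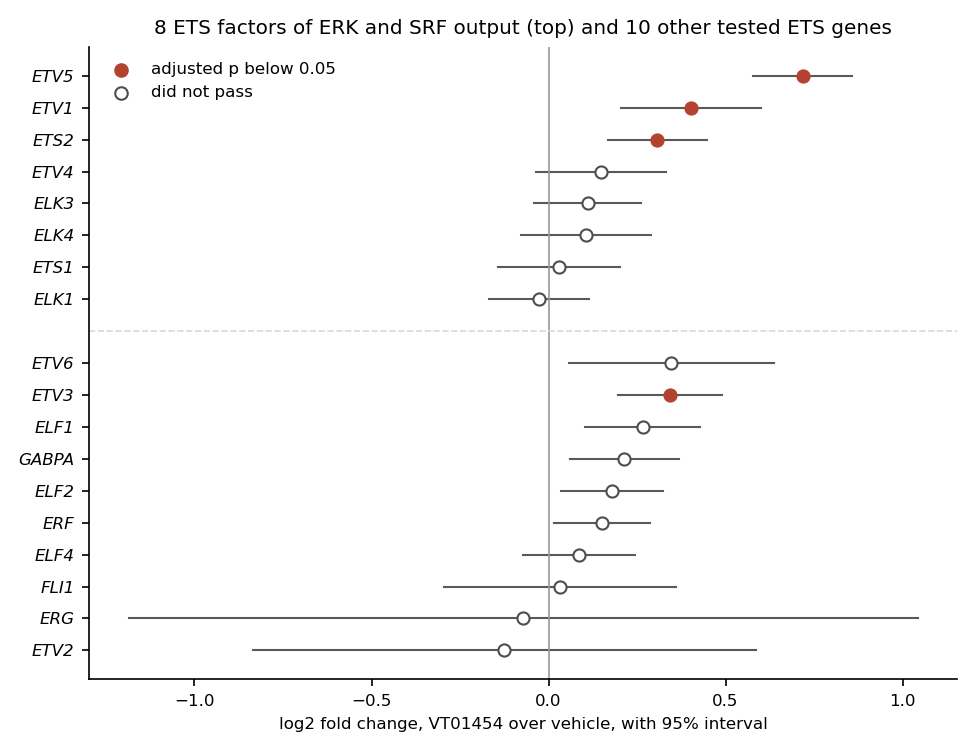
Log2 fold change of VT01454 over vehicle (horizontal axis) with its 95% interval for the 8 ETS factors (above the dashed line) and 10 other tested ETS genes (below it). Filled points passed at an adjusted p below 0.05, namely ETV5, ETV1, ETS2 and ETV3, and ETV5 lay farthest from 0 at 0.72.

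Among 14 listed partners and regulators of these factors, 2 of 13 tested rose and 11 did not pass. Over all tested genes 1.27% were called higher and 0.616% lower. SRF, which recruits the ternary complex factors to DNA, had 193.9, 193.5 and 196.1 CPM with the compound, against 133.9, 135.3 and 119.2 CPM with vehicle (log2 fold change 0.59 ± 0.06, edgeR adjusted p = 1.95e-04). TRIB1, a pseudokinase that brings substrates to the ubiquitin ligase COP1, had 140.9, 140.7 and 145.3 CPM with the compound, against 86.1, 83.3 and 75.5 CPM with vehicle (0.80 ± 0.06, adjusted p = 1.58e-05). Both calls held under all 13 alternatives. COP1, whose ligase degrades PEA3 and ETS proteins, stood at 0.04 ± 0.07 (adjusted p = 0.816), and CIC at 0.25 ± 0.07 (adjusted p = 0.117), with CIC called without vehicle library 3 (adjusted p = 0.0430). MED23, the Mediator subunit that ELK1 contacts, was at 0.23 ± 0.08 (adjusted p = 0.237) and also passed without vehicle library 3 (0.00786). This brought the list to 4 called, in a setting where 1806 of all 15890 tested genes were called. CREBBP and EP300, the genes of CBP and p300, had 0.25 ± 0.10 and 0.36 ± 0.15 (adjusted p = 0.306 and 0.327), and vehicle library 2 was the lowest library for both. EP300 passed without that library (log2 fold change 0.19, adjusted p = 0.0422) and in DESeq2 (adjusted p = 0.0452).

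The RAS-ERK cascade itself showed no called transcript. Of 18 tested genes 0 passed in edgeR, DESeq2 or limma-voom. With 1.89% of all tested genes called in edgeR, 0 of 18 does not set the cascade apart. In edgeR 2 of the 18 reached an unadjusted p below 0.05, as did 2239 of all 15577 tested genes. The median log2 fold change of the 18 was 0.054. SOS1 and BRAF, an exchange factor for RAS and a RAF kinase, were the lowest by p, at 0.30 ± 0.11 and 0.29 ± 0.10 (adjusted p = 0.221 and 0.225), followed by SOS2 at 0.20 ± 0.09 and the phosphatase gene PTPN11 at 0.14 ± 0.07 (0.358 and 0.412). All 4 passed without vehicle library 3 (adjusted p = 0.00239, 0.00311, 0.0320 and 0.0294), where 1806 of all 15890 tested genes were called. MAPK3, the gene of ERK1, was at 0.01 ± 0.07 (adjusted p = 0.962), and below 0 with library size alone or without vehicle library 3. HRAS, named after its values were seen, had 7.83, 2.53 and 1.23 CPM with the compound, against 1.93, 1.83 and 0.627 CPM with vehicle, so its log2 fold change of 1.46 ± 0.88 rested on compound library 1 (adjusted p = 0.528). It was 0.40 without that library, and the gene passed with the replicate number as a block (adjusted p = 0.0301).

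Known targets of the ternary complex factors and SRF rose almost throughout, in a list chosen with earlier results of these data known. Of 15 listed, 14 were tested and 13 rose, whereas 1.27% of all tested genes were called higher. The count of 13 includes SRF, which is also counted among the partners above. EGR4, at 0 or 1 count per library, was not tested. The median log2 fold change was 1.31, and only IER3 did not pass (0.43 ± 0.18, edgeR adjusted p = 0.304). EGR3 had 27.4, 24.6 and 23.5 CPM with the compound, against 0.991, 1.25 and 0.517 CPM with vehicle (4.83 ± 0.19, adjusted p = 3.97e-08). EGR1, a zinc finger factor used as a readout of ELK1, had 187.8, 188.0 and 193.5 CPM with the compound, against 16.2, 24.5 and 14.1 CPM with vehicle (3.39 ± 0.18, adjusted p = 1.09e-04). The AP-1 genes FOS, FOSB and JUNB were at 2.26 ± 0.17, 1.57 ± 0.16 and 1.22 ± 0.10, IER2 at 1.09 ± 0.07, the synaptic gene ARC at 1.99 ± 0.14, and EGR2 and the nuclear receptor gene NR4A1 at 2.11 ± 0.24 and 1.41 ± 0.12. SRF, BTG2, DUSP1 and MCL1 rose less, at 0.59 ± 0.06, 0.67 ± 0.08, 0.45 ± 0.07 and 0.27 ± 0.05. MCL1 did not pass without compound library 1, 2 or 3 or vehicle library 1 (adjusted p = 0.137, 0.104, 0.141 and 0.110), nor did DUSP1 without compound library 2 (0.0523).

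Genes that, like the PEA3 factors, are read as output of MEK and ERK or as CIC targets rose in 6 of 15 tested cases out of 17 listed. None was called lower, and over all tested genes 1.27% were called higher and 0.616% lower. DESeq2 called 7 higher and limma-voom 6 higher, with 0 lower in both. In edgeR 9 had an unadjusted p below 0.05, as did 2239 of all 15577 tested genes. SPRED3, PHLDA1 and IL17RD lay below 0, at -0.22, -0.09 and -0.03 on the log2 scale, and did not pass. DUSP5, a nuclear ERK phosphatase, rose by 1.99 ± 0.11 on the log2 scale and SPRY4, a Sprouty inhibitor, by 1.22 ± 0.07. FOSL1, SPRY2 and DUSP4 rose by 0.76 ± 0.07, 0.66 ± 0.07 and 0.41 ± 0.06, beside 0.72 for ETV5 and 0.40 for ETV1. SPRED2, a further RAS pathway inhibitor, rose by 0.39 ± 0.09 (adjusted p = 0.0391), but did not pass without compound library 1, 2 or 3 or vehicle library 1 (0.164, 0.185, 0.194 and 0.131), or with library size alone (0.0637). The ERK phosphatase gene DUSP6 did not pass at 0.21 ± 0.20 from 3.83 to 4.66 CPM with the compound and 2.58 to 4.17 CPM with vehicle, nor did the cyclin gene CCND1 at 0.15 ± 0.06 (adjusted p = 0.662 and 0.238), of which CCND1 passed without vehicle library 3 (0.0295). DUSP6 had 0.00324 as its lowest log2 fold change without single libraries. The list median was 0.21.

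**Figure D4:**
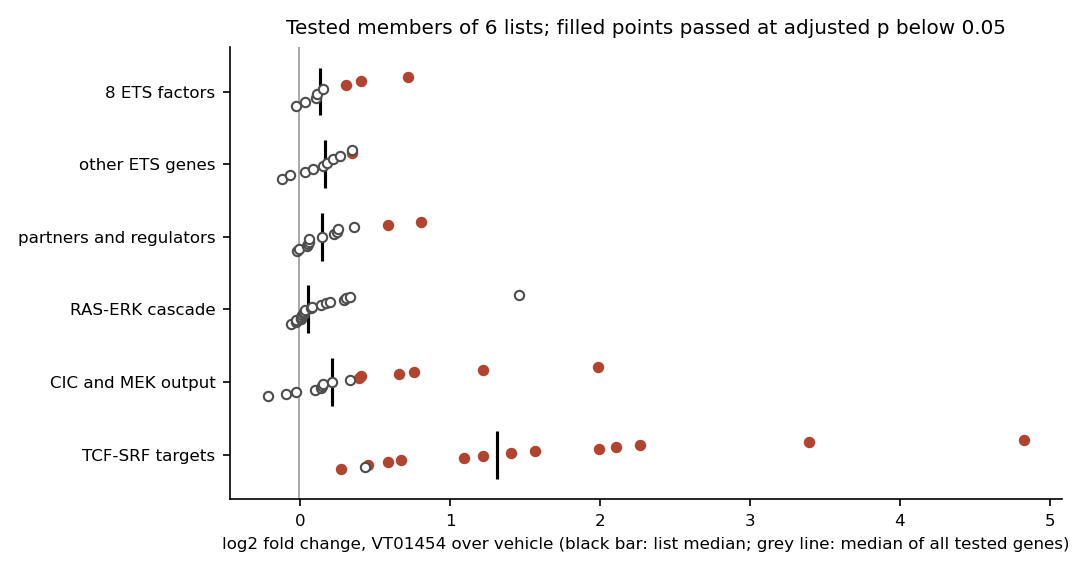
Log2 fold change of VT01454 over vehicle (horizontal axis) for the tested genes of 6 lists, with 1 point per gene, filled where the adjusted p was below 0.05, a black bar at each list's median and a grey line at the median of all tested genes (-0.0073). The medians were 0.13 for the 8 ETS factors and 1.31 for TCF-SRF targets, and the open point at 1.46 is HRAS.

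The genes whose pattern over the 6 libraries was most like that of ETV5 were sought by Pearson's r of log2 CPM among 10599 genes outside the lists. JUN, an AP-1 subunit, came first with r = 0.999, and the corepressor gene TLE4 was among the 3 highest with r = 0.996. JUN was at 761.6 ± 13.7 CPM with the compound and 401.2 ± 23.1 CPM with vehicle (SD, n = 3 each). TLE4 was at 73.5 ± 0.656 CPM with the compound and 55.8 ± 0.465 CPM with vehicle. In all, 128 genes had r above 0.95. The 6 points share the 2 groups, so any gene with a clean step between them scores high.

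**Figure D5:**
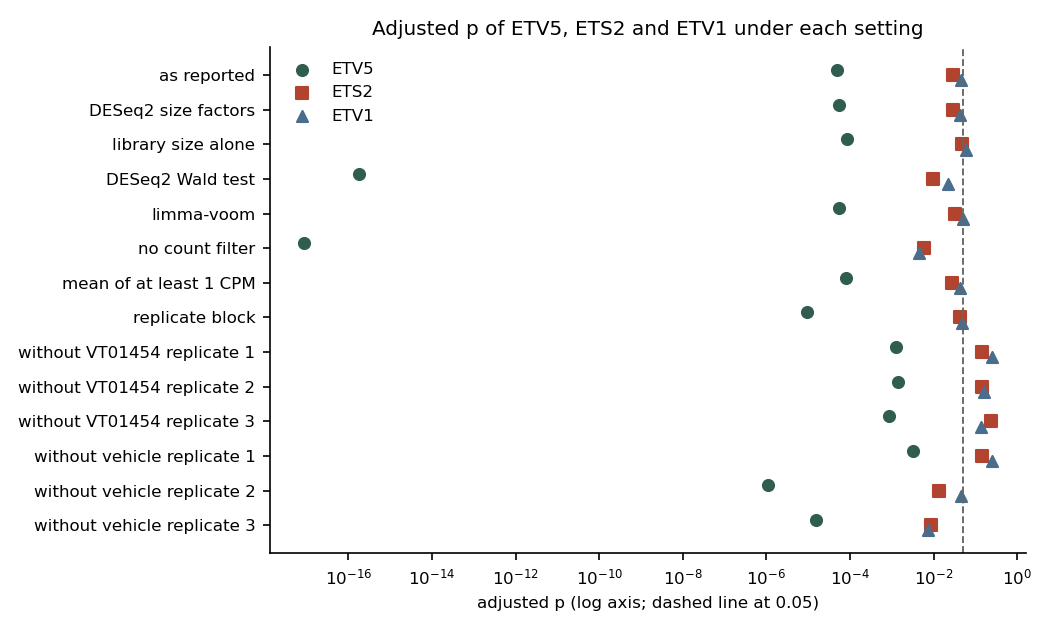
Adjusted p (horizontal log axis, dashed line at 0.05) of ETV5, ETS2 and ETV1 as reported and under 13 other settings (rows). ETV5 stayed below 0.05 throughout, with 0.00326 as its highest value, while ETS2 and ETV1 crossed the line when any compound library or vehicle library 1 was left out, and ETV1 also with library size alone and in limma-voom.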

How the data were processed

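Each library came with a deposited table of raw counts by Ensembl ID, which the authors made with HISAT2 2.2.1 and HTSeq 0.9.1 on hg38, per the submitters' processing notes. Per the labels' protocols, RNA came from an RNeasy Plus extraction and libraries from a NEBNext Ultra II preparation. Annotation release, strand setting and handling of multi-mapped reads: not given in the sources used here. Symbols were matched to 60357 of 60676 IDs, and 58503 IDs were found in GENCODE 29 (GRCh38), which gave coordinates (1-based), exonic length and 3′ UTRs. Promoter windows are from RefSeq.

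After filterByExpr, the tested genes hold 99.9% of the counts. They were scaled by TMM and tested for VT01454 against vehicle with edgeR 4.0.16 in R 4.3.3 (quasi-likelihood F-test, robust, two-sided, Benjamini-Hochberg over all tested genes, threshold 0.05). SE was taken as the size of the log2 fold change over the root of F. CPM uses TMM-scaled library sizes. The edgeR steps were tested on simulated data. Alternatives were DESeq2 1.42.0, limma-voom (limma 3.58.1), scaling by library size only or by DESeq2 size factors, omission of the count filter, a minimum mean of 1 CPM, a block for replicate number, and leaving out each library. Shares were tested by exact two-sided permutation over libraries; those other than the ETV5 share were added after the data were seen.

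The members, lists and tests were chosen with earlier results of these data known. Named are all 8 members, called genes and up to 4 with the smallest p of each of 5 lists, and the 3 genes most like the member of smallest p, of which 1 is not reported here. Protein sequences were not analysed here. Other genes (CREBBP, EP300, COP1, MAPK3, HRAS, IER3, DUSP6, CCND1) were added after their values were seen.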

Additional observations from a re-analysis of the deposited data

How the results depend on the processing

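The 3 calls among the 8 members fell to 1 when a compound library or vehicle library 1 was left out and ran from 1 to 3 over all libraries left out. Over all tested genes the count of 294 became 713 without a count filter, and 93 to 1806 when single libraries were left out, with 1806 without vehicle library 3. Other ETS genes had 1 called, 2 in DESeq2 and without a filter, and 0 to 4 without single libraries. Partners and regulators had 2 called, 5 without a filter and 2 to 4 without single libraries. The RAS-ERK cascade had 0 called, 2 without a filter, 1 with the replicate block and 0 to 4 without single libraries. The cause of these shifts was not tested. Without single libraries the log2 fold change ran from -0.0686 to 0.0207 for ELK1, above 0 without compound library 2, and from -0.0087 to 0.0803 for ETS1, below 0 without vehicle library 2 or compound library 2 (-0.0004). MAPK3 was at -0.0137 with library size alone and ran from -0.0463 (without vehicle library 3) to 0.0737 without single libraries. Direction turned for these 3 genes and for no other of 48 named genes under 13 alternatives. The ETV5 share of the PEA3 level was 7.79 points higher without division by length, beside 8.83, and 8.33 to 9.42 points higher without single libraries.

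Whether the replicate numbers pair the libraries is not known. Deviations of same-numbered libraries correlated at -0.070, 0.0276 and -0.0139, and those of differently numbered libraries at -0.0471 to 0.0577. Such correlations over all genes show no sign of a pairing but cannot exclude one. With the replicate number as a block 339 genes were called, beside 294 without it, and the same 3 members passed (ETV5 0.72, ETV1 0.40 and ETS2 0.31 on the log2 scale).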
